A study of Mus musculus with 10 samples.

Results

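The genes described here encode nucleoporins, the proteins that build the nuclear pore complex, and the receptors that carry cargo through it. Members were taken by gene name from the deposited expression table: names that start with Nup and a digit, Kpna, Kpnb, Ipo, Xpo or Tnpo, together with Nupl1, Nupl2, Tpr, Ranbp2, Rae1, Seh1l, Sec13, Aaas, Pom121, Ndc1, Cse1l, Ran, Rangap1 and Nutf2. This gave 55 of the 12637 genes in the table, and the rule uses gene names alone. RNA was sequenced from spleen CD8+ T cells of 6-week-old female C57Bl/6 mice that had been purified and sorted as naive, with high CD62L and low or no CD44. The mice were either Ikaros-Zn4-/-, homozygous for a germline loss of the fourth zinc finger of the transcription factor Ikaros (gene Ikzf1), which is therefore not limited to T cells, or wild type (WT). Cells were taken unstimulated (0 min) or after contact for 30 or 120 min with plates coated with anti-CD3 and anti-CD28, antibodies that trigger the T cell receptor complex and a costimulatory receptor. The 10 libraries form 6 groups: Ikaros-Zn4-/- at 0 min (2 libraries), 30 min (2) and 120 min (1), and WT at 0 min (2), 30 min (2) and 120 min (1). Whether libraries of a group came from different mice is not stated, so the p-values below reflect the spread among these libraries, which may be technical.

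The nuclear pore is a ring-shaped channel through the nuclear envelope. A scaffold made of the Y complex and the inner ring is anchored by transmembrane nucleoporins, lined by central channel nucleoporins with phenylalanine-glycine repeats, and flanked by cytoplasmic filaments on one face and a nuclear basket on the other. Importins bind cargo in the cytoplasm and release it in the nucleus when they meet Ran bound to GTP, while exportins bind cargo together with Ran-GTP and release it in the cytoplasm. In T cells the transcription factors of the NFAT, NF-kB and AP-1 families have to pass these pores after the T cell receptor is engaged, and mRNA made in response leaves through them.

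Levels are RPKM, which divides reads by transcript length and by the reads in the library, so they can be compared between genes. Depths recovered from the RPKM values were 4.50 to 13.3 M reads per library. All 55 genes passed the filter of a mean of 0.5 RPKM over the 10 libraries. Reads could be recovered for 54 of them, all but Nup62, and the lowest count behind any value was 7 reads. Tests were made on log2(RPKM + 1) with limma over all 12203 genes that passed the filter. In what follows a gene is called where its Benjamini-Hochberg adjusted p was below 0.05. Over all genes the log2 change had a median of -0.13 at 30 min against 0 min, -0.32 at 120 min against 0 min and -0.22 at 120 min against 30 min. That median was subtracted from every change given here, which is then called a relative log2 change, whereas the adjusted p beside it tests the change on the deposited scale. For genes with low RPKM the added 1 makes the change of log2(RPKM + 1) smaller than that of RPKM itself.

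All 8 genes of a CD8 T cell marker list, Cd8a and Cd8b1 among them, were measured, and their summed RPKM was 2610 to 3313 at 0 min, 2384 to 3240 at 30 min and 1165 to 1196 at 120 min. Of these 8 genes 6 fell and 1 rose (Ccr7) at 120 min against 0 min. Few markers of other cells could be measured, 2 of 7 for B cells (summed RPKM 4.47 to 15.1), 3 of 9 for myeloid cells (8.14 to 34.2), 4 of 7 for natural killer cells (13.7 to 112), 2 of 6 for CD4 and regulatory T cells (3.0 to 34.9) and 0 of 8 for red cells and platelets. Between genotypes the natural killer list summed to 87.4 to 112 RPKM in Ikaros-Zn4-/- against 54.4 to 74.7 RPKM in WT cells at 0 min, with Eomes and Gzma called higher. Klrk1 and Klrd1, the other genes of that list measured, were not called, at relative log2 differences of -0.06 and 0.19 over all times. Itgam was also called higher and Cd79b lower in Ikaros-Zn4-/- cells. The other B cell gene, Cd79a (0.18), and the other myeloid genes, Lyz2 (0.92) and Cst3 (-0.05), were not called. The part of these markers in the results below was not tested. Ikzf1 itself was higher in Ikaros-Zn4-/- cells over all times, by 0.58 relative to the median gene (SE 0.08, limma, adjusted p = 0.00165). A value for the whole gene does not check the deleted finger.

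Mean levels of the 55 genes over the 10 libraries ran from 0.954 RPKM for Nup35 to 86.5 RPKM for Nup153, with a median of 13.3 RPKM, against a median of 6.61 RPKM over all genes tested. After Nup153 came Nup210 at 77.6 RPKM, Rangap1 at 56.5 RPKM, Kpnb1 at 50.7 RPKM and Tpr at 49.4 RPKM. These cover the basket, the pore membrane, the Ran cycle and the main import receptor. In all, 36 of the 55 genes were above 10 RPKM and 5 were below 2 RPKM, namely Nup37, Kpna2, Nupl2, Nutf2 and Nup35. Summed over the 55 genes the level was 1432 RPKM in Ikaros-Zn4-/- and 1317 RPKM in WT cells at 120 min, above the range of 859 to 973 RPKM of the 8 libraries at 0 and 30 min. Nup98, Nup153 and Ranbp2 together made up 8.36% to 9.86% of that sum in the libraries at 0 min, 12.3% to 13.7% at 30 min and 26.1% to 31.1% at 120 min.

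**Figure D1:**
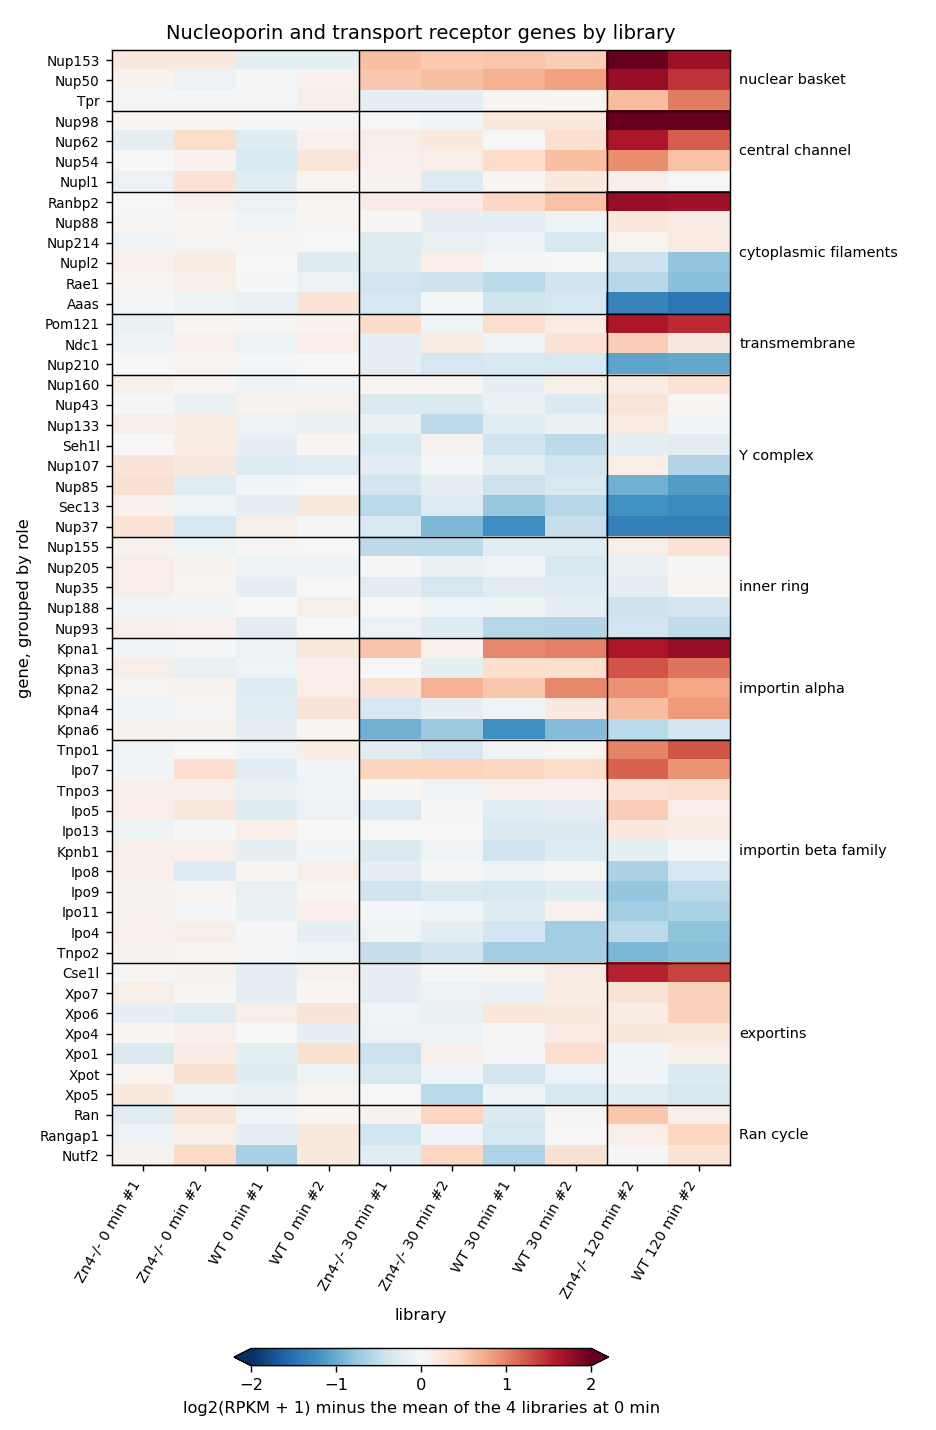
Each cell is log2(RPKM + 1) of a gene (rows, grouped by role) in a library (columns, by time), minus the mean of the 4 libraries at 0 min. Colours stop at 2 in either direction. The nuclear basket rows and Nup98, Ranbp2, Pom121, Kpna1 and Cse1l turn red in both libraries at 120 min, while Aaas, Sec13, Nup37, Nup85 and Nup210 turn blue.

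At 120 min against 0 min the pore genes changed in both directions. Nup98, Nup153, Ranbp2, Kpna1, Nup50, Pom121, Cse1l and Nup62 had the largest rises, and Aaas, Nup37, Sec13, Nup85 and Nup210 the largest falls. Of the 55 genes 18 rose (32.7%) and 15 fell (27.3%), where 19.3% of all genes tested rose and 40.4% fell. The share called in either direction, 60% of the 55 genes, was close to the 59.7% of all genes. The median relative log2 change was 0.46, and 40 of the 55 genes lay above the median gene. The 55 genes did not move as one block: relative log2 changes ran from -1.07 for Aaas to 3.14 for Nup98.

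At 30 min against 0 min fewer genes had changed. Of the 55 genes 5 rose, Nup50, Kpna1, Nup153, Ipo7 and Ranbp2, and 7 fell, Kpna6, Tnpo2, Sec13, Rae1, Nup93, Nup155 and Ipo9. These are 9.09% and 12.7% of the 55 genes, close to the 6.51% and 12.5% of all genes called higher and lower (19.0% in all), and the median relative log2 change was 0.04. Between 30 and 120 min 20 of the 55 genes rose and 9 fell, where 16.9% of all genes rose and 31.3% fell (48.2% in all), and the median relative log2 change was 0.47. All 5 genes that had risen by 30 min rose again by 120 min. Another 10 genes rose at 120 min against both earlier times without a call at 30 min: Nup98, Nup62, Pom121, Tpr, Cse1l, Kpna3, Kpna4, Ipo5, Tnpo1 and Tnpo3. Read by overlap of libraries, 5 of the 55 genes had all 30 min libraries above and 9 had all of them below those at 0 min, as had 6.92% and 15% of all genes. At 120 min 23 lay above and 17 below 0 min without overlap, as did 22.1% and 43.3% of all genes. Against 30 min 27 lay above and 12 below, as did 20.3% and 36.4% of all genes. No call was made in any of these contrasts for 18 genes, among them Ran, Xpo1, Kpnb1 and 4 of the 8 Y complex genes.

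These splits depend on how the libraries are put on one scale. With scaling by the median ratio of genes, 6 rose and 4 fell at 30 min (8.69% and 7.72% of all genes), 29 rose and 9 fell at 120 min against 0 min (26.5% and 32.8% of all genes), and 30 rose and 5 fell at 120 min against 30 min (22.8% and 27.7% of all genes). Each 120 min group is 1 library, assumed to vary like the others, and a lower share of reads cannot be told apart from fewer cells of a type or less RNA per cell. With each of the 10 libraries left out in turn, 21 of the 33 calls at 120 min against 0 min were made every time, 12 of them rises and 9 falls, and 20 of these 21 were also made with median ratio scaling. For 30 min against 0 min only the calls of Nup50, Nup153, Kpna6 and Tnpo2 were made every time. For 120 min against 30 min 13 of the 29 calls were, 11 rises and 2 falls, and without the Ikaros-Zn4-/- library at 120 min the count was 14.

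**Figure D2:**
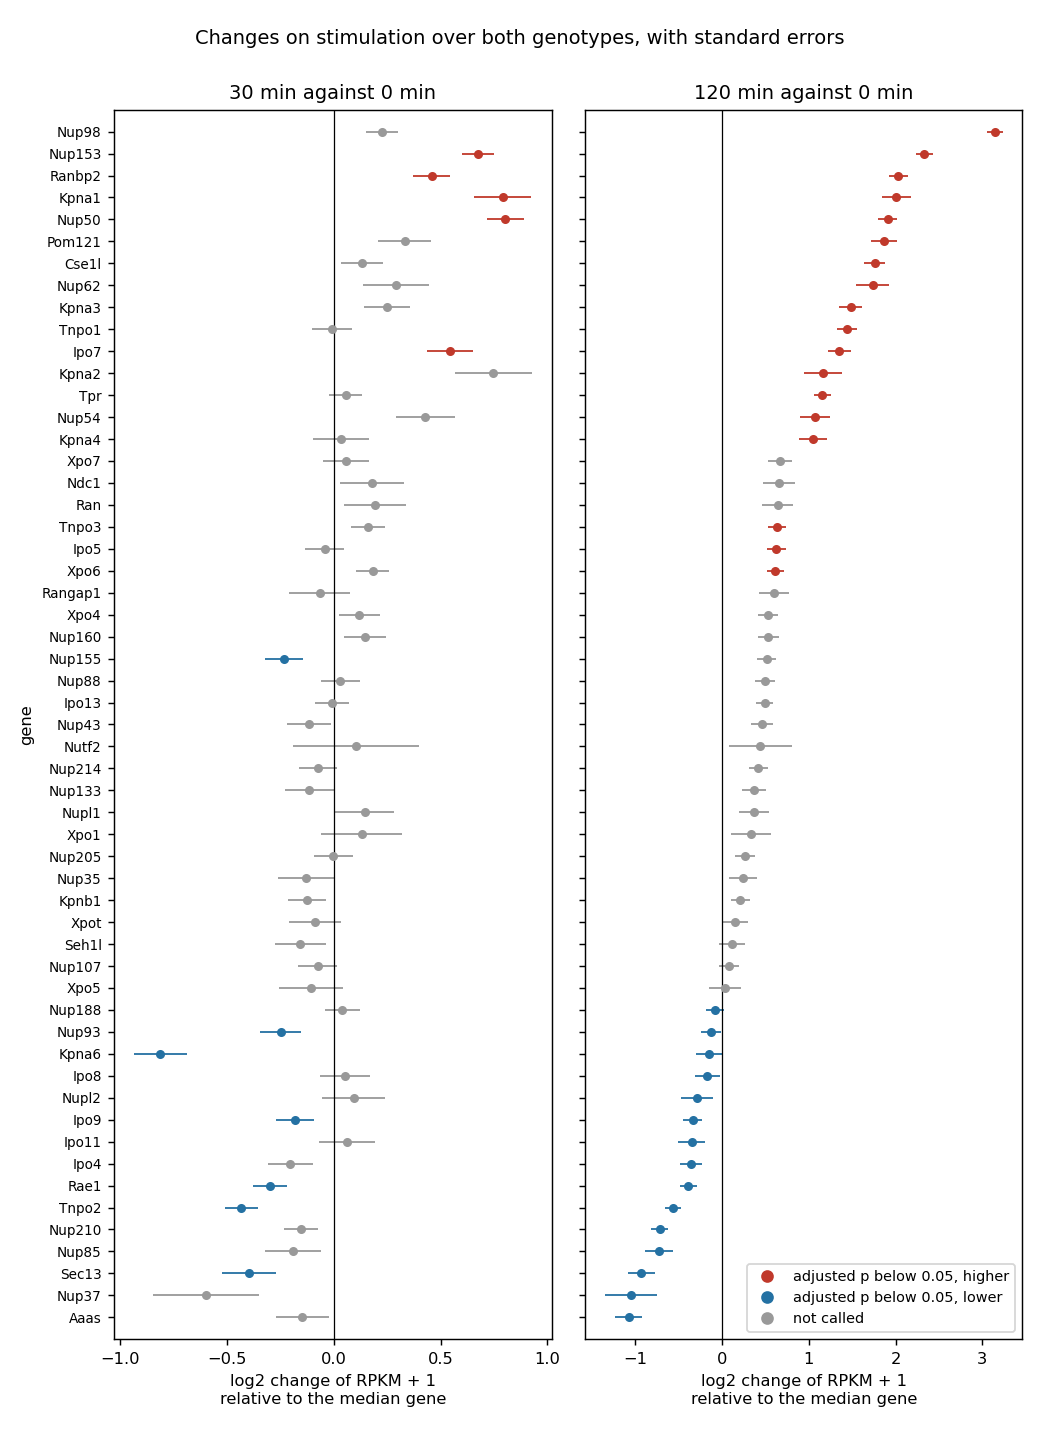
Relative log2 change of RPKM + 1 (x axis) with its standard error for the 55 genes (y axis, ordered by the change at 120 min), at 30 min (left) and 120 min (right) against 0 min over both genotypes. Colours show calls on the deposited scale, so a gene near 0 relative to the median, such as Nup188 at -0.08, can be called lower. At 120 min Nup98 stands apart at 3.14.

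The nuclear basket was the role in which all 3 genes rose at 120 min. Nup153, which anchors the basket and binds import receptors, stood at 54.1 and 54.2 RPKM before stimulation, 72.0 and 68.5 RPKM after 30 min and 241 RPKM after 120 min in Ikaros-Zn4-/- cells. In WT cells it stood at 41.3 and 41.2 RPKM before stimulation, 69.9 and 66.8 RPKM after 30 min and 156 RPKM after 120 min. Every library was above every library of an earlier time. Means and SDs at a time, here and below, pool both genotypes, so the SD includes any gap between them. Nup153 averaged 199 ± 60.4 RPKM at 120 min (SD, n = 2) and 47.7 ± 7.47 RPKM at 0 min (SD, n = 4), a relative log2 change of 2.33 (SE 0.09, limma, adjusted p = 3.23e-05). At 30 min the relative log2 change was already 0.68 (SE 0.08, limma, adjusted p = 0.00662).

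Nup50, a basket partner that speeds release of import cargo, had 18 and 15.7 RPKM before stimulation, 25.4 and 26.7 RPKM after 30 min and 59.5 RPKM after 120 min in Ikaros-Zn4-/- cells. In WT cells it had 16.9 and 18.2 RPKM before stimulation, 28.8 and 31.2 RPKM after 30 min and 48.7 RPKM after 120 min. The 3 times did not overlap, and the relative log2 change was 0.80 at 30 min (SE 0.09, limma, adjusted p = 0.00492) and 1.91 at 120 min (SE 0.11, limma, adjusted p = 4.9e-05). Tpr, which forms the filaments of the basket, was called at 120 min alone. Its levels were 41.7 and 41.9 RPKM before stimulation, 37.5 and 37.4 RPKM after 30 min and 67.7 RPKM after 120 min in Ikaros-Zn4-/- cells, and 42.2 and 46.6 RPKM before stimulation, 44.8 and 44.1 RPKM after 30 min and 89.9 RPKM after 120 min in WT cells. Its libraries at 0 and 30 min overlapped, and the relative log2 change at 120 min was 1.16 (SE 0.09, limma, adjusted p = 0.00031).

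In the central channel 3 of 4 genes rose at 120 min and none was called at 30 min. Nup98, whose transcript also encodes the scaffold protein Nup96 that is cut from the same precursor, had the largest rise of the 55 genes. In Ikaros-Zn4-/- cells it had 16.2 and 16.3 RPKM before stimulation, 15.9 and 15.2 RPKM after 30 min and 126 RPKM after 120 min. In WT cells it had 15.5 and 15.3 RPKM before stimulation, 18.4 and 18.5 RPKM after 30 min and 111 RPKM after 120 min. The 8 earlier libraries lay within a narrow band and both libraries at 120 min far above it. Nup98 averaged 119 ± 10.1 RPKM at 120 min (SD, n = 2) and 15.8 ± 0.511 RPKM at 0 min (SD, n = 4), 7.49-fold higher, with a relative log2 change of 3.14 (SE 0.09, limma, adjusted p = 3.23e-05).

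Nup62, the core of the channel's central subcomplex, had 17.3 and 25.6 RPKM before stimulation, 21.8 and 22.9 RPKM after 30 min and 63.9 RPKM after 120 min in Ikaros-Zn4-/- cells, and 16.7 and 21.3 RPKM before stimulation, 19.8 and 25.5 RPKM after 30 min and 47.6 RPKM after 120 min in WT cells. Both libraries at 120 min were above the rest, and the relative log2 change was 1.74 (SE 0.19, limma, adjusted p = 0.000672). Nup62 had no GENCODE M21 gene model, so its reads, exon overlaps and shared sequence were not checked. Of its partners in that subcomplex, Nup54 had 5.86 and 6.27 RPKM before stimulation, 6.34 and 6.59 RPKM after 30 min and 12.2 RPKM after 120 min in Ikaros-Zn4-/- cells, and 4.61 and 7.18 RPKM before stimulation, 7.94 and 9.47 RPKM after 30 min and 9.34 RPKM after 120 min in WT cells. It rose at 120 min, with WT libraries at 30 and 120 min overlapping, by a relative log2 change of 1.07 (SE 0.17, limma, adjusted p = 0.00733). Of the 50-base stretches of Nup54 13.9% also occur in Gm15790. Nupl1, the gene of Nup58, was not called, with 15.8 ± 0.855 RPKM at 120 min (SD, n = 2) and 15.4 ± 2.6 RPKM at 0 min (SD, n = 4). Of the 50-base stretches of Nupl1 53.6% also occur in other gene models, Gm49336 on the same strand among them, so its level is uncertain.

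**Figure D3:**
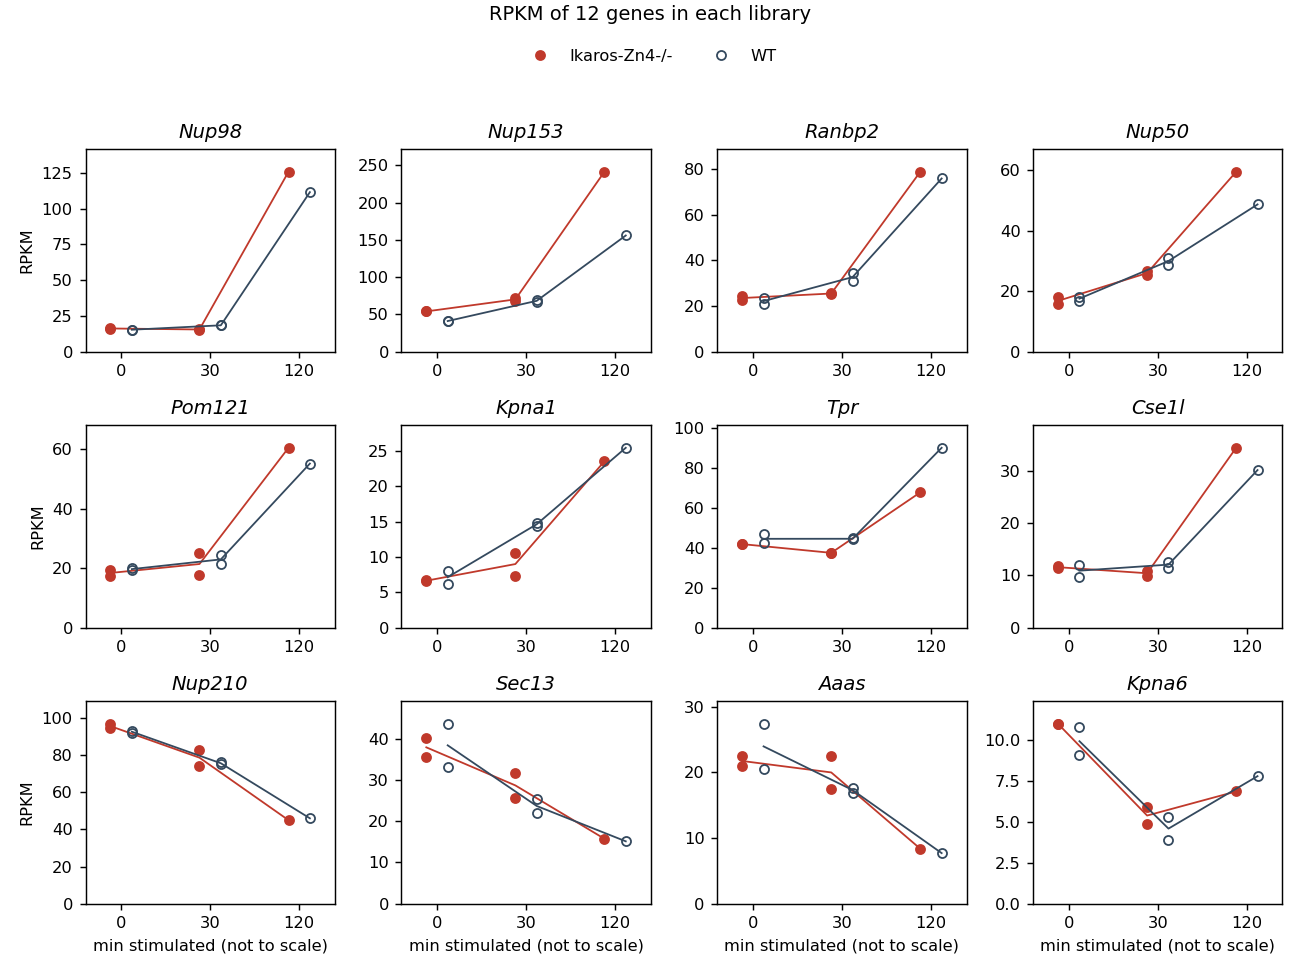
RPKM (y axis, from 0) of 12 genes in each library against time of stimulation in min, with times evenly spaced. Filled points are Ikaros-Zn4-/- and open points WT libraries, and lines join group means. Nup98 and Tpr are flat until 30 min, Nup153, Nup50 and Kpna1 are already higher at 30 min, and Nup210, Sec13 and Aaas go down to their lowest at 120 min.

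Among the 6 genes of the cytoplasmic filaments and the docking of mRNA particles, 1 rose and 3 fell at 120 min. Ranbp2, the giant filament protein that binds Ran and acts as a SUMO ligase, had 22.7 and 24.3 RPKM before stimulation, 25.3 and 25.7 RPKM after 30 min and 78.7 RPKM after 120 min in Ikaros-Zn4-/- cells. In WT cells it had 20.9 and 23.3 RPKM before stimulation, 30.7 and 34.6 RPKM after 30 min and 75.8 RPKM after 120 min. The times did not overlap, with a relative log2 change of 0.46 at 30 min (SE 0.09, limma, adjusted p = 0.0403) and 2.03 at 120 min (SE 0.10, limma, adjusted p = 4.23e-05). The 30 min call was lost when any 1 of 8 of the 10 libraries was left out.

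The genes that fell in this role were Aaas, Rae1 and Nupl2. Aaas, which encodes the pore protein ALADIN, had 22.4 and 21 RPKM before stimulation, 17.5 and 22.4 RPKM after 30 min and 8.38 RPKM after 120 min in Ikaros-Zn4-/- cells, and 20.5 and 27.4 RPKM before stimulation, 16.9 and 17.7 RPKM after 30 min and 7.71 RPKM after 120 min in WT cells. Both libraries at 120 min lay below the other 8, and the relative log2 change was -1.07 (SE 0.15, limma, adjusted p = 0.000285). Rae1, an mRNA export factor that binds Nup98, was called at 30 min with a relative log2 change of -0.30 (SE 0.08, limma, adjusted p = 0.0149) and at 120 min with -0.39 (SE 0.10, limma, adjusted p = 0.000837). It had 29.4 and 30.7 RPKM before stimulation, 21.7 and 21 RPKM after 30 min and 18.7 RPKM after 120 min in Ikaros-Zn4-/- cells, and 27.5 and 26.0 RPKM before stimulation, 19.1 and 21.3 RPKM after 30 min and 15.5 RPKM after 120 min in WT cells. All libraries at 30 and 120 min lay below those at 0 min. Rae1 averaged 17.1 ± 2.24 RPKM at 120 min (SD, n = 2), 20.8 ± 1.13 RPKM at 30 min (SD, n = 4) and 28.4 ± 2.06 RPKM at 0 min (SD, n = 4). Nupl2 had 1.51 and 1.65 RPKM before stimulation, 1.01 and 1.61 RPKM after 30 min and 0.779 RPKM after 120 min in Ikaros-Zn4-/- cells, and 1.38 and 1.02 RPKM before stimulation, 1.30 and 1.37 RPKM after 30 min and 0.379 RPKM after 120 min in WT cells. Both libraries at 120 min were the lowest, and its call was lost with median ratio scaling (adjusted p = 0.0537). Nup214 and Nup88, partners at the base of the filaments, were not called on the deposited scale and were called higher at 120 min with median ratio scaling (adjusted p = 0.0275 and adjusted p = 0.0129).

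The 3 transmembrane nucleoporins went different ways. Pom121, which anchors the pore in the envelope, had 17.2 and 19.5 RPKM before stimulation, 24.9 and 17.9 RPKM after 30 min and 60.4 RPKM after 120 min in Ikaros-Zn4-/- cells, and 19.4 and 19.9 RPKM before stimulation, 24.5 and 21.3 RPKM after 30 min and 55.1 RPKM after 120 min in WT cells. Both libraries at 120 min were above all others, with a relative log2 change of 1.87 (SE 0.15, limma, adjusted p = 0.000168). Exons of Nsun5 on the opposite strand overlap 11.9% of its exon length, and the kit does not mark strand. Nsun5 fell at 120 min, by a relative log2 change of -1.07 (limma, adjusted p = 0.000245).

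Nup210, the second most abundant of the 55 genes and a membrane nucleoporin known in mouse CD4+ T cells for supporting survival and receptor signalling, went the other way. It had 94.3 and 96.8 RPKM before stimulation, 83.0 and 74.2 RPKM after 30 min and 45 RPKM after 120 min in Ikaros-Zn4-/- cells, and 92.0 and 93.2 RPKM before stimulation, 76.2 and 75.0 RPKM after 30 min and 46.0 RPKM after 120 min in WT cells. The 3 times did not overlap. The relative log2 change was -0.72 at 120 min (SE 0.10, limma, adjusted p = 0.000159), and at 30 min -0.15, just short of a call (limma, adjusted p = 0.0501). Ndc1, the other membrane anchor, was not called, with 3.14 ± 0.642 RPKM at 120 min (SD, n = 2) and 2.26 ± 0.293 RPKM at 0 min (SD, n = 4).

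Among the Y complex and inner ring genes none was called higher against 0 min on the deposited scale, while median ratio scaling called Nup160 (adjusted p = 0.00955), Nup155 (adjusted p = 0.0132) and Nup43 (adjusted p = 0.0495) higher at 120 min. Nup98, which rose and whose transcript also encodes the scaffold protein Nup96, is counted with the central channel and not here. Of the 8 Y complex genes Sec13, Nup85 and Nup37 fell at 120 min. Sec13, which also belongs to the COPII coat of transport vesicles, had 40.2 and 35.5 RPKM before stimulation, 25.7 and 31.6 RPKM after 30 min and 15.7 RPKM after 120 min in Ikaros-Zn4-/- cells, and 33.1 and 43.6 RPKM before stimulation, 22.0 and 25.3 RPKM after 30 min and 15.1 RPKM after 120 min in WT cells. The 3 times did not overlap, and the relative log2 change was -0.40 at 30 min (SE 0.13, limma, adjusted p = 0.0308) and -0.93 at 120 min (SE 0.15, limma, adjusted p = 0.000475). Nup85, a stem subunit of the Y, had 21.2 and 14.4 RPKM before stimulation, 13.0 and 14.8 RPKM after 30 min and 8.28 RPKM after 120 min in Ikaros-Zn4-/- cells, and 16.3 and 17.0 RPKM before stimulation, 12.5 and 13.6 RPKM after 30 min and 7.34 RPKM after 120 min in WT cells. Both libraries at 120 min lay below the rest. It had a relative log2 change of -0.72 at 120 min (SE 0.16, limma, adjusted p = 0.0013), with 7.81 ± 0.663 RPKM at 120 min (SD, n = 2) and 17.2 ± 2.87 RPKM at 0 min (SD, n = 4). Nup37 had 3.85 and 2.12 RPKM before stimulation, 2.22 and 1.15 RPKM after 30 min and 0.558 RPKM after 120 min in Ikaros-Zn4-/- cells, and 3.35 and 2.89 RPKM before stimulation, 0.697 and 1.89 RPKM after 30 min and 0.559 RPKM after 120 min in WT cells. Both libraries at 120 min were again the lowest, and it fell by a relative log2 change of -1.04 (SE 0.30, limma, adjusted p = 0.00686) on 17 to 171 reads per library. Nup160, Nup133, Nup107, Seh1l and Nup43 were not called against 0 min. Summed over the 8 genes, Nup98 not among them, the level was 66.6 RPKM in Ikaros-Zn4-/- and 57.4 RPKM in WT cells at 120 min, below the 68.3 to 109 RPKM of the earlier libraries.

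The inner ring had 2 of 5 genes lower at 120 min, Nup188 and Nup93, by relative log2 changes of only -0.08 and -0.13. Nup188 had 16.2 and 16.1 RPKM before stimulation, 17.0 and 15.8 RPKM after 30 min and 12.5 RPKM after 120 min in Ikaros-Zn4-/- cells, and 17.0 and 18.3 RPKM before stimulation, 15.7 and 14.6 RPKM after 30 min and 12.7 RPKM after 120 min in WT cells, and both libraries at 120 min lay below the others. Nup93 had 14.7 and 14.3 RPKM before stimulation, 12.3 and 11 RPKM after 30 min and 10.1 RPKM after 120 min in Ikaros-Zn4-/- cells, and 11.3 and 13.5 RPKM before stimulation, 8.71 and 8.58 RPKM after 30 min and 9.09 RPKM after 120 min in WT cells. Libraries of WT cells at 30 min were the lowest. Neither call was made with median ratio scaling (adjusted p = 0.363 and adjusted p = 0.218). Nup155, which links the ring to the membrane, moved down and back. It had 7.43 and 6.55 RPKM before stimulation, 4.62 and 4.60 RPKM after 30 min and 7.72 RPKM after 120 min in Ikaros-Zn4-/- cells, and 7.17 and 7.05 RPKM before stimulation, 5.91 and 5.96 RPKM after 30 min and 8.78 RPKM after 120 min in WT cells. All libraries at 30 min lay below those at both other times, with a relative log2 change at 120 min against 30 min of 0.78 (SE 0.11, limma, adjusted p = 0.00494). The fall at 30 min (-0.23, SE 0.09, limma, adjusted p = 0.0319) was not called with median ratio scaling (adjusted p = 0.114). Nup205 and Nup35 were not called.

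Importin alpha proteins, the adaptors that read classical nuclear localization signals, were called at 120 min for all 5 genes measured. Kpna1, Kpna3, Kpna4 and Kpna2 rose and Kpna6 fell. Kpna1 (importin alpha 5), an adaptor of this family, had 6.55 and 6.75 RPKM before stimulation, 10.6 and 7.38 RPKM after 30 min and 23.5 RPKM after 120 min in Ikaros-Zn4-/- cells. In WT cells it had 6.22 and 8.07 RPKM before stimulation, 14.4 and 14.9 RPKM after 30 min and 25.4 RPKM after 120 min. At 30 min 1 Ikaros-Zn4-/- library stayed within the range of 0 min, and the relative log2 change was 0.79 at 30 min (SE 0.13, limma, adjusted p = 0.0195) and 2.01 at 120 min (SE 0.16, limma, adjusted p = 0.000165). The 30 min call was lost when any 1 of 5 of the 10 libraries was left out.

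Kpna3 and Kpna4, the pair that imports NF-kB subunits, rose at 120 min by relative log2 changes of 1.48 (SE 0.13, limma, adjusted p = 0.000324) and 1.05 (SE 0.16, limma, adjusted p = 0.00597). Kpna3 had 6.39 and 5.17 RPKM before stimulation, 5.84 and 4.95 RPKM after 30 min and 15.4 RPKM after 120 min in Ikaros-Zn4-/- cells, and 5.45 and 6.35 RPKM before stimulation, 7.60 and 7.5 RPKM after 30 min and 13.3 RPKM after 120 min in WT cells. Kpna4 had 18.4 and 19.3 RPKM before stimulation, 14.9 and 16.9 RPKM after 30 min and 29.8 RPKM after 120 min in Ikaros-Zn4-/- cells, and 16.2 and 22.9 RPKM before stimulation, 18.2 and 21.7 RPKM after 30 min and 35.3 RPKM after 120 min in WT cells. For both genes the 0 and 30 min libraries overlapped and both 120 min libraries were above them. Kpna3 averaged 14.4 ± 1.42 RPKM at 120 min (SD, n = 2) and 5.84 ± 0.621 RPKM at 0 min (SD, n = 4), and Kpna4 32.5 ± 3.87 RPKM at 120 min (SD, n = 2) and 19.2 ± 2.82 RPKM at 0 min (SD, n = 4). Kpna2, an importin alpha abundant in dividing cells, had 0.835 and 0.850 RPKM before stimulation, 1.12 and 1.87 RPKM after 30 min and 2.34 RPKM after 120 min in Ikaros-Zn4-/- cells, and 0.486 and 0.940 RPKM before stimulation, 1.56 and 2.45 RPKM after 30 min and 2.02 RPKM after 120 min in WT cells. Libraries at 30 and 120 min overlapped and all were above 0 min. Its values rest on 11 to 62 reads, and 62.6% of its 50-base stretches occur in other genes, so its change is uncertain. Kpna6 (importin alpha 7) had 11 and 11 RPKM before stimulation, 4.91 and 5.90 RPKM after 30 min and 6.88 RPKM after 120 min in Ikaros-Zn4-/- cells, and 9.09 and 10.8 RPKM before stimulation, 3.90 and 5.31 RPKM after 30 min and 7.81 RPKM after 120 min in WT cells. It fell to its lowest at 30 min, with no overlap with 0 min and a relative log2 change of -0.81 (SE 0.12, limma, adjusted p = 0.00512), the largest fall of the 55 genes at that time. From 30 to 120 min it rose by 0.70 (SE 0.15, limma, adjusted p = 0.0333), a call lost when any 1 of 6 of the 10 libraries was left out, and its call against 0 min at 120 min was not made with median ratio scaling (adjusted p = 0.206).

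Of the 11 import receptors of the importin beta family 4 rose and 5 fell at 120 min. Ipo7, a receptor for ribosomal proteins and histone H1, had 21.5 and 28.4 RPKM before stimulation, 30.6 and 30.7 RPKM after 30 min and 51.6 RPKM after 120 min in Ikaros-Zn4-/- cells, and 19.0 and 21.4 RPKM before stimulation, 30.0 and 29.0 RPKM after 30 min and 42.5 RPKM after 120 min in WT cells. The 3 times did not overlap, with relative log2 changes of 0.55 at 30 min (SE 0.11, limma, adjusted p = 0.0397) and 1.35 at 120 min (SE 0.13, limma, adjusted p = 0.000541). The 30 min call was lost when any 1 of 7 of the 10 libraries was left out. Tnpo3, which imports SR splicing factors, and Ipo5 rose by 0.64 and 0.63, calls lost when any 1 of 5 and any 1 of 8 of the 10 libraries was left out.

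The transportins Tnpo1 and Tnpo2, close paralogs that import hnRNP A1 and other RNA-binding proteins, moved in opposite directions. Tnpo1 had 10.3 and 10.8 RPKM before stimulation, 9.13 and 8.45 RPKM after 30 min and 22.4 RPKM after 120 min in Ikaros-Zn4-/- cells, and 10.1 and 12.1 RPKM before stimulation, 10.2 and 11.3 RPKM after 30 min and 27.2 RPKM after 120 min in WT cells. Tnpo2 had 25.2 and 24.7 RPKM before stimulation, 16.9 and 17.9 RPKM after 30 min and 12.2 RPKM after 120 min in Ikaros-Zn4-/- cells, and 23.3 and 22.8 RPKM before stimulation, 14.5 and 14.5 RPKM after 30 min and 12.9 RPKM after 120 min in WT cells. So Tnpo2 was the higher of the pair per length in all 4 libraries at 0 min and Tnpo1 in both at 120 min. The relative log2 change at 120 min was 1.44 for Tnpo1 (SE 0.12, limma, adjusted p = 0.000213) and -0.57 for Tnpo2 (SE 0.09, limma, adjusted p = 0.000228). Tnpo2 had fallen by 30 min (-0.43, SE 0.08, limma, adjusted p = 0.00564). Of the stretches of Tnpo1 10.7% also occur in other genes, and 10.6% of the exon length of Tnpo2 lies opposite A230103J11Rik, a gene at 0.242 to 1.43 RPKM.

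The other receptors of this family that fell were Ipo9, Ipo4, Ipo11 and Ipo8, by relative log2 changes of -0.34, -0.36, -0.35 and -0.17. Ipo9 had 16.2 and 15.9 RPKM before stimulation, 11.5 and 12.4 RPKM after 30 min and 8.58 RPKM after 120 min in Ikaros-Zn4-/- cells, and 13.8 and 15.8 RPKM before stimulation, 12.1 and 12.8 RPKM after 30 min and 10.3 RPKM after 120 min in WT cells. Ipo4 had 17.1 and 17.4 RPKM before stimulation, 15.2 and 13.9 RPKM after 30 min and 10.7 RPKM after 120 min in Ikaros-Zn4-/- cells, and 15.7 and 14.1 RPKM before stimulation, 12.1 and 9.48 RPKM after 30 min and 8.74 RPKM after 120 min in WT cells. For Ipo9 both libraries at 120 min were below all others, and for Ipo4 they were the lowest within each genotype. Of the 50-base stretches of Ipo4 51.6% also occur in Gm49378. That gene model overlaps 55.3% of its exon length on the same strand, so the level of Ipo4 is uncertain. Ipo11 had 2.79 and 2.48 RPKM before stimulation, 2.49 and 2.4 RPKM after 30 min and 1.23 RPKM after 120 min in Ikaros-Zn4-/- cells, and 2.29 and 2.84 RPKM before stimulation, 2.04 and 2.81 RPKM after 30 min and 1.31 RPKM after 120 min in WT cells. Ipo8 had 6.73 and 5.0 RPKM before stimulation, 5.27 and 6.04 RPKM after 30 min and 3.63 RPKM after 120 min in Ikaros-Zn4-/- cells, and 6.37 and 6.84 RPKM before stimulation, 5.69 and 6.29 RPKM after 30 min and 4.72 RPKM after 120 min in WT cells. Both had their lowest values at 120 min. Of these genes Ipo4 (adjusted p = 0.0571) and Ipo8 (adjusted p = 0.183) were not called with median ratio scaling. Kpnb1 (importin beta 1), the receptor that carries importin alpha and its cargo, was not called in any of the stimulation contrasts. It had 48.5 RPKM in Ikaros-Zn4-/- and 53.7 RPKM in WT cells at 120 min, within the 41.6 to 59.7 RPKM of the earlier libraries. Ipo13 was called only against 30 min.

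Among the 7 exportins 2 rose at 120 min. Cse1l, which returns importin alpha to the cytoplasm, had 11.4 and 11.7 RPKM before stimulation, 9.93 and 10.9 RPKM after 30 min and 34.3 RPKM after 120 min in Ikaros-Zn4-/- cells, and 9.78 and 12 RPKM before stimulation, 11.5 and 12.6 RPKM after 30 min and 30.1 RPKM after 120 min in WT cells. The earlier libraries overlapped and both at 120 min were above them, with a relative log2 change of 1.76 (SE 0.12, limma, adjusted p = 9.63e-05). Xpo6, the exportin of actin, rose by 0.62 (SE 0.10, limma, adjusted p = 0.0299), a call lost when any 1 of 4 of the 10 libraries was left out. Xpo1, the exportin of leucine-rich export signals (CRM1), was not called and averaged 16.2 ± 1.28 RPKM at 120 min (SD, n = 2) and 16.1 ± 3.29 RPKM at 0 min (SD, n = 4). Xpo5, the exportin of microRNA precursors, Xpot, that of tRNA, Xpo4 and Xpo7 were not called against 0 min.

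None of the 3 Ran cycle genes was called on stimulation with the deposited scale. Rangap1, which makes Ran hydrolyse GTP, had 62.5 RPKM in Ikaros-Zn4-/- and 76.4 RPKM in WT cells at 120 min, against 49.5 to 65.1 RPKM at 0 min. Ran had 28.2 RPKM in Ikaros-Zn4-/- and 20.8 RPKM in WT cells at 120 min, against 16.3 to 22.7 RPKM at 0 min. With median ratio scaling both were called higher at 120 min (adjusted p = 0.00798 for Rangap1 and adjusted p = 0.00985 for Ran), with relative log2 changes of 0.60 and 0.64. Of the 50-base stretches of Ran 14.1% also occur in other genes. Nutf2, which brings Ran back into the nucleus, was read 7 to 32 times per library, too few to place it.

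Promoter sequences are shown for the 3 nucleoporin genes with the largest rises at 120 min and for Aaas and Sec13, 2 that fell. Each is the 250 bases before the RefSeq start on GRCm38.p6, on the gene's strand, with capitals for the letters of the motifs searched: GGGCGG (the box of Sp factors), CCGGAAG (ETS factors), CACGTG (an E-box, read by Myc among others), TGANTCA (AP-1) and TGGGAA (the Ikaros core). Matches were sought on both strands, and none of the strings contains another. Nup98 lies at chr7:102210167-102210416 (minus strand), Nup153 at chr13:46727850-46728099 (minus), Ranbp2 at chr10:58446602-58446851 (plus), Aaas at chr15:102350760-102351009 (minus) and Sec13 at chr6:113740682-113740931 (minus). These starts lie 10 to 91 bases from the GENCODE M21 gene starts.
Nup98: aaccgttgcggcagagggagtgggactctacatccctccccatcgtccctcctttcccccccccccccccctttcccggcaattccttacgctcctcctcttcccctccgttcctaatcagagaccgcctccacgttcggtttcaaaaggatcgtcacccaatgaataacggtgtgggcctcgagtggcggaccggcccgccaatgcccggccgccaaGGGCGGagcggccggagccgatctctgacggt
Nup153: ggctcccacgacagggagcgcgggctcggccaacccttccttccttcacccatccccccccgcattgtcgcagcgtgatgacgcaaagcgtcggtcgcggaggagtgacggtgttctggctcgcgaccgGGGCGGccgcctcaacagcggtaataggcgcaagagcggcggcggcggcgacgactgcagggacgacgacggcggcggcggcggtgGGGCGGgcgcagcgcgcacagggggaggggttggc
Ranbp2: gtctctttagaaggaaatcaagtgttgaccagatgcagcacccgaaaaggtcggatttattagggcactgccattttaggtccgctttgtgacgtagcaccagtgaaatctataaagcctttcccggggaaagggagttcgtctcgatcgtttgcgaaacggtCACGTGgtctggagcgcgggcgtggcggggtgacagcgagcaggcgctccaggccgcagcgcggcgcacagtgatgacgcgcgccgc
Aaas: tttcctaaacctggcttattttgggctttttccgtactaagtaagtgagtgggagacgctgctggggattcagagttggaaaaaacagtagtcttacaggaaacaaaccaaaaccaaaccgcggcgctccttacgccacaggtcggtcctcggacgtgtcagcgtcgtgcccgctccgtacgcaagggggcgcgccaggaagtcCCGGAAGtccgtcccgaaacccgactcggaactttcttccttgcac
Sec13: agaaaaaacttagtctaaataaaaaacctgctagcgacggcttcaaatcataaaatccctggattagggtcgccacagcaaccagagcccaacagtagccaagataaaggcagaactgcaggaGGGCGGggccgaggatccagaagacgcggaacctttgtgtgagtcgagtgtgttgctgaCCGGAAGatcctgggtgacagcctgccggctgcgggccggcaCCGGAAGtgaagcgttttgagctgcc

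The windows of Nup98 and Nup153 hold Sp boxes, that of Ranbp2 an E-box, that of Aaas an ETS motif and that of Sec13 2 ETS motifs and an Sp box. RefSeq windows were found for 45 of the 55 genes, 53 windows in all. The Sp box was in 60.4% of these windows, against 32.7% of all 32851 windows, the ETS motif in 17.0% against 6.91%, the E-box in 15.1% against 6.02%, the AP-1 motif in 5.66% against 6.75% and the Ikaros core in 17.0% against 21.6%. The 32851 windows were not limited to genes measured in these cells, and whether other measured genes have similar shares was not tested. The E-box was in 3 of 15 genes that rose at 120 min, 3 of 13 that fell and 2 of 17 not called, and the ETS motif in 2, 4 and 2 of them. The Sp box was in 9, 6 and 15 of them, so its share was largest among genes not called. The AP-1 motif was in 0, 2 and 1 and the Ikaros core in 2, 3 and 3. A match is a description of these letters and not a binding site.

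At 30 min the genotypes were also examined apart, 2 libraries against 2. In Ikaros-Zn4-/- cells only Kpna6 was called, with a relative log2 change of -0.80 (SE 0.17, limma, adjusted p = 0.045), where 1.68% of all genes were called higher and 1.06% lower (2.74% in all). In WT cells 6 of the 55 genes were called, where 3.21% of all genes were called higher and 2.82% lower (6.03% in all): Nup153, Nup50, Kpna1 and Ranbp2 rose by 0.86, 0.89, 1.10 and 0.69, and Tnpo2 and Kpna6 fell, at -0.48 and -0.83. In Ikaros-Zn4-/- cells the same 6 genes had relative log2 changes of 0.49, 0.72, 0.48, 0.23, -0.38 and -0.80. Of these calls 0 of 1 in Ikaros-Zn4-/- and 0 of 6 in WT cells were made with every library left out in turn. The difference of the responses itself was called for 0 genes of the 55 and 0.0% of all genes with limma at 30 min and at 120 min. With limma-voom it was called for 0 of the 54 with recovered reads. At an unadjusted p below 0.05 there were 2 of the 55 genes at 30 min, Ranbp2 (-0.43) and Ipo13 (0.40), which is 3.64% against 5.38% of all genes, and 0 at 120 min against 5.42% of all genes.

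Over all times 2 of the 55 genes differed between genotypes, where 9.42% of all genes did, 6.19% higher and 3.24% lower in Ikaros-Zn4-/- cells. Xpo6 was lower in Ikaros-Zn4-/- cells and Nup107 was higher. Xpo6 had 20.9 and 20.0 RPKM before stimulation, 21.9 and 21.2 RPKM after 30 min and 26.0 RPKM after 120 min in Ikaros-Zn4-/- cells, and 25.6 and 28.2 RPKM before stimulation, 27.8 and 26.9 RPKM after 30 min and 32.5 RPKM after 120 min in WT cells. At each time every Ikaros-Zn4-/- library was below every WT library. The log2 difference relative to the median gene was -0.35 (SE 0.07, limma, adjusted p = 0.0126), and the call was made with each library left out in turn (highest adjusted p = 0.0447).

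Nup107, a Y complex scaffold gene, had 17.5 and 16.6 RPKM before stimulation, 12.2 and 14.0 RPKM after 30 min and 15.8 RPKM after 120 min in Ikaros-Zn4-/- cells, and 12.1 and 12.2 RPKM before stimulation, 12.5 and 10.8 RPKM after 30 min and 9.25 RPKM after 120 min in WT cells. At 30 min the genotypes overlapped. The difference of 0.38 (SE 0.10, limma, adjusted p = 0.0438) was no longer called with median ratio scaling (adjusted p = 0.0733), nor when any 1 of 8 of the 10 libraries was left out, that is, all but the first 30 min library of each genotype. Over all times 0 of the 55 genes had all 5 Ikaros-Zn4-/- libraries above and 0 had them below all 5 WT libraries, against 2.7% and 0.844% of all genes. Other genes kept their order at each time without a call: Ipo7, Ipo4 and Nup93 above and Tpr below WT, where 9.29% of all genes lay above and 6.43% below at each time. The adjusted p was 0.0782 for Ipo4, 0.0864 for Nup93, 0.132 for Tpr and 0.278 for Ipo7 (limma). The level of Ipo4 is uncertain, since it shares 51.6% of its 50-base stretches with Gm49378. Nup153 was higher in Ikaros-Zn4-/- cells at 0 min, 54.1 and 54.2 RPKM against 41.3 and 41.2 RPKM in WT cells, and at 120 min, 241 RPKM against 156 RPKM, but not beyond the threshold (0.29, SE 0.10, limma, adjusted p = 0.104).

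**Figure D4:**
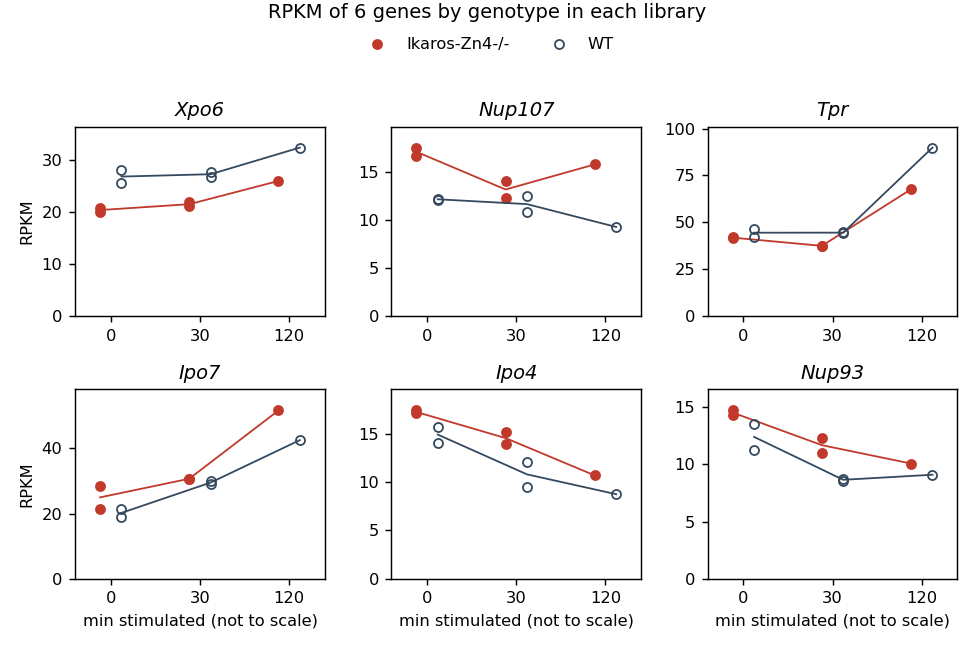
RPKM (y axis, from 0) of 6 genes in each library against time of stimulation in min, with times evenly spaced. Filled points are Ikaros-Zn4-/- and open points WT libraries, and lines join group means. Xpo6 and Tpr lie below WT at each time, Ipo7, Ipo4 and Nup93 above, and Nup107 overlaps WT at 30 min.

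At single times none of the 55 genes was called between genotypes. Counts with limma-voom here are of the 54 genes with recovered reads. At 0 min limma called 0 of them and limma-voom 0, where limma called 2.47% of all genes (1.92% higher and 0.557% lower); 4 (7.27%) had an unadjusted p below 0.05, against 13.9% of all genes. At 30 min limma called 0 and limma-voom 0, where limma called 2.61% of all genes (2.01% higher and 0.606% lower), and the unadjusted p was below 0.05 for 7 (12.7%), against 17.2% of all genes. At 120 min 1 library stood against 1, with no test. There the log2 difference of RPKM + 1 was beyond 0.5 for 2 of the 55 genes, Nup107 (0.71) and Nup153 (0.63), and for 21.7% of all genes.

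Genes of neighbouring pathways, from lists chosen with earlier results of these data known, were set beside the pore genes. Of 16 nuclear lamina and envelope genes 4 rose and 0 fell at 30 min, and 4 rose and 9 fell at 120 min. Among all genes 6.51% rose and 12.5% fell at 30 min, and 19.3% rose and 40.4% fell at 120 min. With median ratio scaling 5 of the 16 rose and 7 fell at 120 min, against 26.5% and 32.8% of all genes. On the deposited scale the risers were Lmna (lamin A/C), Lemd3, Tor1aip2 and Ahctf1 at both times. Ahctf1 encodes ELYS, which seeds pore assembly on chromatin with the Y complex. It had 13.2 and 13.1 RPKM before stimulation, 16.4 and 14.8 RPKM after 30 min and 47.1 RPKM after 120 min in Ikaros-Zn4-/- cells, and 12.8 and 12.9 RPKM before stimulation, 18.2 and 17.4 RPKM after 30 min and 42.2 RPKM after 120 min in WT cells. The 3 times did not overlap, and its relative log2 change at 120 min was 2.02 (SE 0.10, limma, adjusted p = 3.7e-05).

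Of 25 mRNA export genes 2 rose and 3 fell at 30 min (6.51% and 12.5% of all genes), and 5 rose and 9 fell at 120 min (19.3% and 40.4%). With median ratio scaling 2 rose and 1 fell at 30 min (8.69% and 7.72% of all genes), and 8 rose and 8 fell at 120 min (26.5% and 32.8%). Among those that fell were the THO subunits Thoc5 and Thoc7, the adaptor Alyref2 and the cap-binding Ncbp2, with relative log2 changes of -1.33, -0.98, -0.97 and -0.85. Alyref2 was low, at 1.74 to 2.27 RPKM at 0 min. Nxf1, the main mRNA export receptor, named after its values were seen, rose by 1.43 at 120 min (SE 0.13, limma, adjusted p = 0.000373). The rest of those that rose were Nxt2 (1.28), Alyref (1.25), Nxt1 (0.75) and Thoc2 (0.64). Of 6 further Ran and export cofactors 3 rose and 1 fell at 120 min, where 19.3% of all genes rose and 40.4% fell. Rcc1, the nucleotide exchange factor of Ran, Ranbp3 and Ranbp10 rose, and Snupn, the import adaptor of spliceosomal snRNPs, fell. Ranbp10 was also higher in Ikaros-Zn4-/- cells over all times, by 0.65 (SE 0.11, limma, adjusted p = 0.00607). Syne1, which encodes the envelope protein nesprin-1, was lower in Ikaros-Zn4-/- cells, by a relative log2 difference of -1.16 (SE 0.12, limma, adjusted p = 0.000355). It had 4.52 and 3.37 RPKM before stimulation, 4.13 and 3.06 RPKM after 30 min and 2.5 RPKM after 120 min in Ikaros-Zn4-/- cells, and 11.7 and 9.81 RPKM before stimulation, 9.88 and 7.57 RPKM after 30 min and 6.31 RPKM after 120 min in WT cells, with no overlap between genotypes.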

How the data were processed

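RNA-seq of 10 libraries in 6 groups was analysed from 1 deposited table of RPKM values per gene, which the authors made before deposit. The submitters' processing notes name HTSeq 0.6.1, TopHat and TopHat2 2.0.12, and the builds mm10 and GRCm38, with neither order nor settings. Per the labels' protocols libraries were made with a TruSeq RNA kit that does not mark strand. Every gene in the table has a group mean of at least 1 RPKM in some group, so genes low throughout are not analysed here. Turned back into reads, 65.8% to 71.2% of values under 200 were whole to within 0.01, where chance gives 2%; the depths derived from them cover 4.50 to 13.3 M reads, and 1 read per kb is worth 0.0750 to 0.222 RPKM.

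Genes averaging 0.5 RPKM or more across the libraries were tested on log2(RPKM + 1), two-sided, with limma 3.58.1 (trend on mean level) in R 4.3.3, with 1 mean per group and a spread shared by all groups; the genotype effect over all times came from a model of genotype plus time. P-values were adjusted by Benjamini-Hochberg across the 12203 genes and called below 0.05. The fit was tested on simulated data. Python 3.11.15 made the tables and figures. Alternatives were other pseudocounts, filters and scalings, limma-voom on recovered reads, a replicate block and leaving out each library. Genes named with values in every library were those called on stimulation with the largest changes, up to 15 in each direction, and those called between genotypes. Members and gene lists were chosen with earlier results of these data known. Promoters are from RefSeq (GRCm38.p6), and shared 50-base stretches and exon overlaps from GENCODE M21. Nup62 had no gene model there and was left out of these checks and of limma-voom. The result of 1 further gene list is not reported here.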

Additional observations from a re-analysis of the deposited data

Results flagged for a closer look

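Opposite moves on the deposited scale were seen for 9 of the 55 genes. Every library of one genotype lay above its 0 min libraries, and every library of the other below. The share of all genes with such opposite moves was not counted. At 30 min the difference in log2 response on the deposited scale, Ikaros-Zn4-/- minus WT cells, was -0.3096 for Nup98, 0.3973 for Ipo13, -0.334 for Tnpo3 and -0.3574 for Xpo4. At 120 min, with 1 library per genotype, it was -0.3706 for Kpnb1, -0.3594 for Nup205, 0.3713 for Nup43, -0.7352 for Nutf2 and -0.394 for Nup35. The difference of responses was tested with limma, and the adjusted p lay between 0.876 and 0.989 for these genes. Relative to the median gene, 54 of the 55 genes lay on the same side at 120 min in both genotypes, all but Nup107. Kpnb1, Nup205, Nup43, Nutf2 and Nup35 lay above it in both. Nutf2 rests on 7 to 32 reads per library.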

How the results depend on the processing

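Counts in this section are of the 55 genes called, and with limma-voom of the 54 with recovered reads. They are given without the share of all genes called with the same setting. A change in a count is therefore not told apart from a general change in calls. In Ikaros-Zn4-/- cells at 30 min against 0 min the count of 1 became 0 with a pseudocount of 0.1, with no filter, with no trend or with a spread taken from the compared groups alone, 2 with a filter at 2 RPKM, with median ratio scaling or with quantile normalization, and 4 with limma-voom. In WT cells the count of 6 became 0 with a spread taken from the compared groups alone and 10 with limma-voom. Between genotypes over all times the count of 2 became 1 with median ratio scaling, quantile normalization or no trend. The cause was not tested. No result reversed.

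With each library left out in turn the count was 4 to 12 at 30 min against 0 min, 24 to 33 at 120 min against 0 min, 14 to 25 at 120 min against 30 min, 0 to 1 in Ikaros-Zn4-/- and 0 to 6 in WT cells at 30 min, and 1 to 2 between genotypes. At 30 min against 0 min it was 5, 7, 6 and 7 without the first or second Ikaros-Zn4-/- library at 0 min or the first or second at 30 min, and 5, 5, 4 and 5 without those of WT cells in the same order. The count of 14 came without the Ikaros-Zn4-/- library at 120 min. Without a 120 min library that time rests on the other genotype alone, and its interaction has no value.

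With a replicate block over the libraries at 0 and 30 min the count was 5 in Ikaros-Zn4-/- cells, 10 in WT cells and 16 over both. Deviations of same-numbered libraries correlated at 0.037 to 0.23 between groups, and with 2 numbers they are not known to be pairs. Depth limits Nup37, Kpna2, Nupl2, Nutf2 and Nup35, each below 2 RPKM on average.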
